A study of Homo sapiens and Mus musculus with 20 samples.

Results

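The 4 ERBB receptor genes (EGFR, ERBB2, ERBB3 and ERBB4) and the 4 neuregulin genes (NRG1, NRG2, NRG3 and NRG4) were examined for Satb1 binding and chromatin accessibility in MCF10A cells, a human mammary epithelial line. Each gene was taken as its GENCODE body on GRCh37 (hg19) with 100 kb on each side. These 8 windows were 8 of the 20136 protein-coding gene windows built in the same way, and they spanned 5674 kb. A peak was assigned to a gene if it overlapped the window by at least 1 bp. The windows held 63 of the 22877 peaks of full-length Satb1 (FL), 128 of the 50537 peaks of Satb1 without its homeodomain (∆HD) and 151 of the 62856 peaks of the N-terminal domain with the CUT1 domain (N-C1). They held 53 of 24475 FL peaks called after camptothecin and 75 of 37350 called after ICRF-193. ATAC-seq gave 373 of 175989 accessible regions in native cells and 389 of 206170 in cells expressing Satb1.

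ERBB receptors are receptor tyrosine kinases that dimerise when a ligand is bound and signal through the RAS-MAPK and PI3K pathways. EGFR binds EGF and its relatives, ERBB3 and ERBB4 bind neuregulins, and ERBB2 has no known ligand and acts as the preferred partner of the others. NRG1 and NRG2 bind both ERBB3 and ERBB4, whereas NRG3 and NRG4 bind ERBB4. In mammary epithelium the family controls ductal growth and lactation, and MCF10A cells are cultured with EGF.

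MCF10A cells lack native Satb1. FL, ∆HD and N-C1 were each expressed as a C-terminal eGFP fusion from a lentiviral cumate-switch vector in stable lines sorted on GFP, and were precipitated with a GFP antibody. Satb1 is a chromatin protein with CUT domains and a homeodomain that binds A/T-rich DNA. FL cells were also treated for 2 h with camptothecin, which inhibits topoisomerase I, or with ICRF-193, which inhibits topoisomerase II. All lines thus carried ectopic Satb1 or a part of it, and the native ATAC-seq cells carried none. There was 1 peak list per condition, so the spread between replicates is not known and no test was run. Fold enrichment is the authors' value for a peak over its local background. A percentile gives the share of peaks in the same list with a lower fold enrichment. Intervals are exact 95% Clopper-Pearson intervals that cover counting error only, and neighbouring peaks are not independent. The lists differed in size, the sources give a range of depth for the ChIP-seq libraries but not the depth behind each list, and a site absent from a list was not shown to be unbound.

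ERBB4 held the most FL peaks of the 8 genes. Its window had 27 FL peaks, or 19.8 per Mb, against 8.0 per Mb over the genome, and 97.4% of protein-coding windows had a lower density. NRG3 followed with 15 FL peaks (11.4 per Mb), NRG4 with 3 (9.26 per Mb), NRG1 with 12 (8.47 per Mb), EGFR with 3 (7.64 per Mb), NRG2 with 2 (5.04 per Mb) and ERBB3 with 1 (4.41 per Mb). The ERBB2 window had no FL peak. Thus 7 of the 8 windows held an FL peak, where 58.8% of all protein-coding windows did. A longer window is more likely to hold a peak, so these shares are not like for like. Only 130 of all 20136 windows were at least 1 Mb long, those of ERBB4, NRG1 and NRG3 among them. The 3 genes over 1 Mb long, ERBB4, NRG1 and NRG3, carried 54 of the 63 FL peaks in the windows, and their windows were also A/T rich (65.1%, 62.1% and 62.5%). Among the 130 protein-coding windows of at least 1 Mb, the median density was 9.01 FL peaks per Mb. ERBB4 was above 93.1% of these windows, NRG3 above 67.7% and NRG1 above 44.6%.

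**Figure D1:**
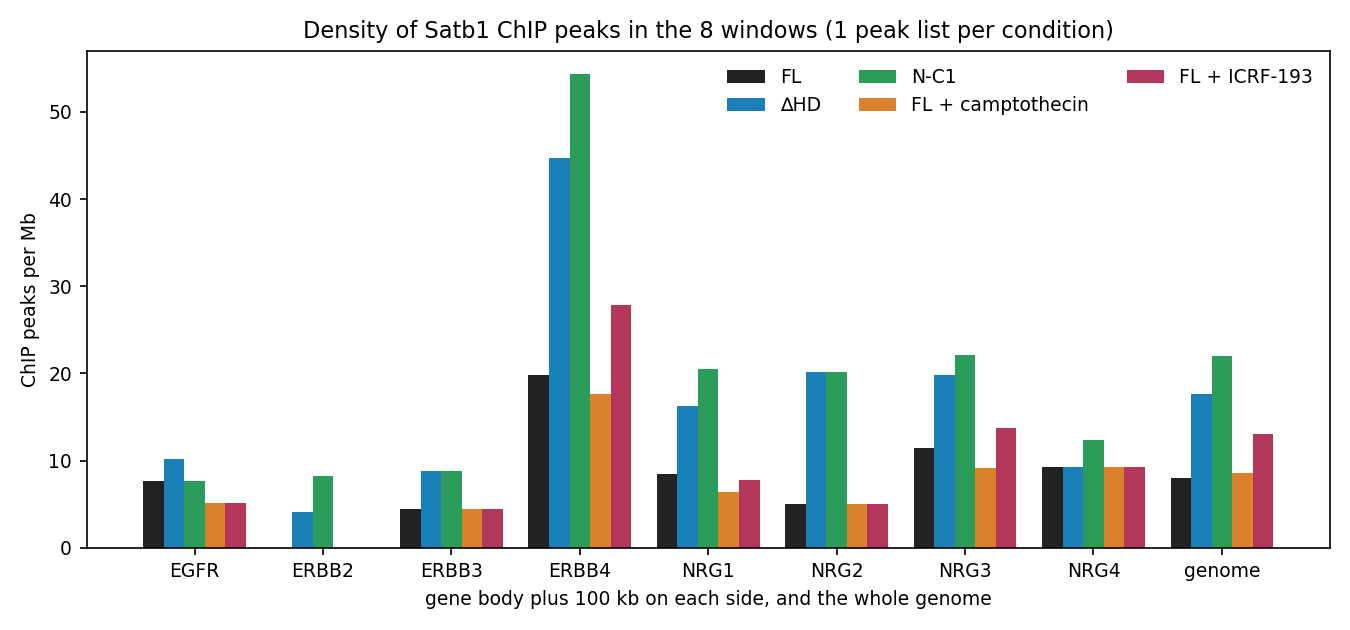
ChIP peaks per Mb (y axis, linear from 0) in each gene window and over the genome (x axis), with 1 bar for each of the 5 peak lists. ERBB4 stands highest in all 5 lists, at 19.8 per Mb for FL and 54.3 per Mb for N-C1, and ERBB2 has no bar for FL or for either drug.

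The order of the windows was compared with the density of a consensus for Satb1. The consensus searched here is a simplified string for the core of the motif logo in the paper, without its weights or flanking positions, and the counts below depend on it. It reads C or T, then TA, then A or T, then TA, then A or G (for example CTAATAA or TTATTAG). It is its own reverse complement, so 1 strand covers both. The ERBB4 window held 1738 matches (1.28 per kb), NRG3 1332 (1.02 per kb) and NRG1 1322 (0.933 per kb), whereas ERBB2 held 75 (0.309 per kb) and ERBB3 77 (0.340 per kb). The median of all protein-coding windows was 0.606 per kb. The share of matches that lay inside an FL peak was highest in ERBB4. There 76 matches did (4.37%, 3.46 to 5.44), in NRG3 47 (3.53%, 2.60 to 4.66), in NRG4 9 (3.54%, 1.63 to 6.62) and in NRG1 33 (2.50%, 1.72 to 3.49). In the smaller windows EGFR had 5 (1.95%, 0.635 to 4.48), NRG2 3 (1.44%, 0.298 to 4.16), ERBB3 1 (1.3%, 0.0329 to 7.02) and ERBB2 none (up to 4.80%). Over the genome 2.71% of matches did, a value that the intervals of all windows but ERBB4 held. Matches within 1 peak are not independent, and the 76 of ERBB4 lay in no more than 27 FL peaks. The intervals are therefore too narrow, and they do not settle whether ERBB4 differs. Counted by peaks, ERBB4 had 15.5 FL peaks per 1000 matches against 9.78 over the genome. ERBB3 had 13.0 from a single peak, NRG4 11.8, EGFR 11.7, NRG3 11.3, NRG2 9.62, NRG1 9.08 and ERBB2 none.

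EGFR, the receptor of EGF, lies on chromosome 7 (chr7:55086710-55279321, plus strand). Its window held 6 sites when overlapping peaks of the 5 ChIP lists were merged, numbered here along the chromosome, and 3 of them carried an FL peak. Site 1, 30.5 kb upstream of the transcription start, was the only one found in all 5 lists. Its fold enrichment was 5.96 in FL, 13.1 in ∆HD, 14.2 in N-C1, 6.82 after camptothecin and 9.09 after ICRF-193. These values stood at the 27.3 percentile of the FL list and at the 88.8 and 89.2 percentiles of the ∆HD and N-C1 lists. The 2 FL sites inside the gene were in neither construct list. Site 3 in intron 1 had a fold enrichment of 5.76 in FL and was in no other list. Site 5 in intron 27 had 5.63 in FL, 5.71 after camptothecin and 5.77 after ICRF-193. In the other direction, sites 2 and 6 in the flanks were in both construct lists without FL (4.65 and 6.55 in N-C1), and site 4 in intron 1 was in the ∆HD list alone (4.74).

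The EGFR sites are shown because the site shared by all lists and the intron 27 site that both constructs lacked differ in composition. The sequences are 150 bp at the FL summit on the plus strand of hg19, and capitals mark consensus matches. Site 1 was 74.0% A/T and site 5 was 84% A/T, and each held 1 match in the stretch shown. Site 3, the other FL site that both constructs lacked, went the other way, at 71.3% A/T in its 150 bp.
EGFR site 1 (chr7:55056114-55056263): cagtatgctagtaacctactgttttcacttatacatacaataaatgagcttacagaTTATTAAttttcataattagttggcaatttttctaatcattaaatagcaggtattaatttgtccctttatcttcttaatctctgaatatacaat
EGFR site 5 (chr7:55271532-55271681): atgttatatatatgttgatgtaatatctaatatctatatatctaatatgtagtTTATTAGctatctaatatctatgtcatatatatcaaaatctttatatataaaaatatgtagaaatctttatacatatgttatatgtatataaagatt

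ERBB2, the ligand-less partner receptor, lies on chromosome 17 (chr17:37844167-37886679, plus strand) among 9 other protein-coding genes. No site of its window was in the FL list or in either drug list, the only window of which this held, and 3 sites were each in 1 construct list. All 3 lay in the flank downstream of ERBB2, within the gene body of IKZF3, 96.2 to 108 kb from the ERBB2 start. Their fold enrichment was 5.70 (site 1, N-C1), 5.18 (site 2, ∆HD) and 5.0 (site 3, N-C1). The window was 49.2% A/T, the lowest of the 8. ERBB3, a neuregulin receptor with little kinase activity of its own, lies on chromosome 12 (chr12:56470583-56497289, plus strand) and had no peak of any ChIP list in its body. Its only FL site, site 2, lay 55.6 kb upstream, inside the gene body of IKZF4. Its fold enrichment was 8.94 in FL, 9.44 in ∆HD and 10.6 in N-C1, and it was in neither drug list. Site 1, 95.3 kb upstream in RAB5B, was also in both construct lists (6.02 and 5.77). For FL and the drugs it had the opposite pattern, in both drug lists (4.02 and 4.99) but not in FL. With 1 site of each kind, the ERBB3 window shows no direction for the drugs.

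ERBB4, the receptor for all 4 neuregulins, lies on chromosome 2 (chr2:212240442-213403565, minus strand), with no other protein-coding gene in its window. Its 83 merged sites comprised 27 with an FL peak and 56 without. Of all 83 sites, 74 were intronic, 9 lay in the flanks and none had its summit in an exon. Intron 1, which is 414 kb long, held 35 sites, of which 11 carried an FL peak, 27 a ∆HD peak and 32 an N-C1 peak. Intron 20 held 9 sites with 4 FL peaks, intron 2 held 8 with 3, and intron 3 held 8 with 1. FL peaks were spaced by a median of 47.6 kb, from 2.31 to 114 kb. The strongest FL site of all 8 windows was site 42 in intron 2 (chr2:212943143-212944030). Its fold enrichment was 44 in FL, 7.26 in ∆HD, 30.5 in N-C1, 40.6 after camptothecin and 54.2 after ICRF-193. It stood at the 99.2 percentile of the FL list, the 97.5 percentile of N-C1 and the 59.0 percentile of ∆HD. Site 6 in intron 25 was the next of the ERBB4 window, with 22.8 in FL, 22.0 in ∆HD, 43.0 in N-C1, 24.5 after camptothecin and 30.9 after ICRF-193, and it was high in every list.

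The ERBB4 sequences contrast the strongest FL site with the strongest N-C1 site that had no FL peak, site 49 in intron 1 (9.17 in N-C1, 6.88 in ∆HD). Both are 150 bp on the plus strand of hg19 with consensus matches in capitals. Site 42 held 4 matches, the middle pair starting 10 bp apart, in a stretch of 84.7% A/T. Site 49 held 3 matches in a stretch of 72.0% A/T. Site 42 had the highest A/T of the 63 FL sites, and the groups differed less. In 200 bp the 27 FL sites of ERBB4 averaged 73.3% A/T (SD 4.13). Its 46 N-C1 sites without FL averaged 70.5% (SD 3.19).
ERBB4 site 42 (chr2:212943479-212943628): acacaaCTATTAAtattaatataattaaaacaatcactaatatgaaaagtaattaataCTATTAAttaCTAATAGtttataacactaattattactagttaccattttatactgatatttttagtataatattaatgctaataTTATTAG
ERBB4 site 49 (chr2:213058694-213058843): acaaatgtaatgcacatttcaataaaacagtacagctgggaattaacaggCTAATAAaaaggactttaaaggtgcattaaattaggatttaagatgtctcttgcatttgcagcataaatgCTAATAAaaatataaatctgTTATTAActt

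Over the genome 88.6% of FL peaks were also in the ∆HD list and 95.2% in the N-C1 list. In ERBB4 all 27 were in both lists (100%, 87.2 to 100), an interval that held both genome-wide values. The construct lists added further sites there: 34 of 61 ∆HD peaks (55.7%, 42.4 to 68.5) and 47 of 74 N-C1 peaks (63.5%, 51.5 to 74.4) had no FL peak, where over the genome 60.1% and 65.4% had none. The additional sites were weaker than the shared ones within the same list. In N-C1 their median fold enrichment was 4.83 (range 3.44 to 9.17) against 11.8 (7.08 to 43.0) at sites shared with FL, and over the genome the medians were 5.18 and 10.6. After camptothecin 18 of the 27 FL peaks were found again (66.7%, 46.0 to 83.5), where 81.7% were over the genome. After ICRF-193 24 were (88.9%, 70.8 to 97.6), where 92.9% were over the genome. The 9 peaks missing after camptothecin had a median FL fold enrichment of 5.41 (4.72 to 6.64), below the 9.65 (5.59 to 44) of those found again. ERBB4 also held 14 of the 21 ICRF-193 peaks without an FL peak in the 8 windows, and 6 of the 8 such camptothecin peaks. They were 14 of its 38 ICRF-193 peaks (36.8%, 21.8 to 54.0) and 6 of its 24 camptothecin peaks (25%, 9.77 to 46.7). Over the genome 43.3% and 23.9% had no FL peak, and both intervals held these values.

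**Figure D2:**
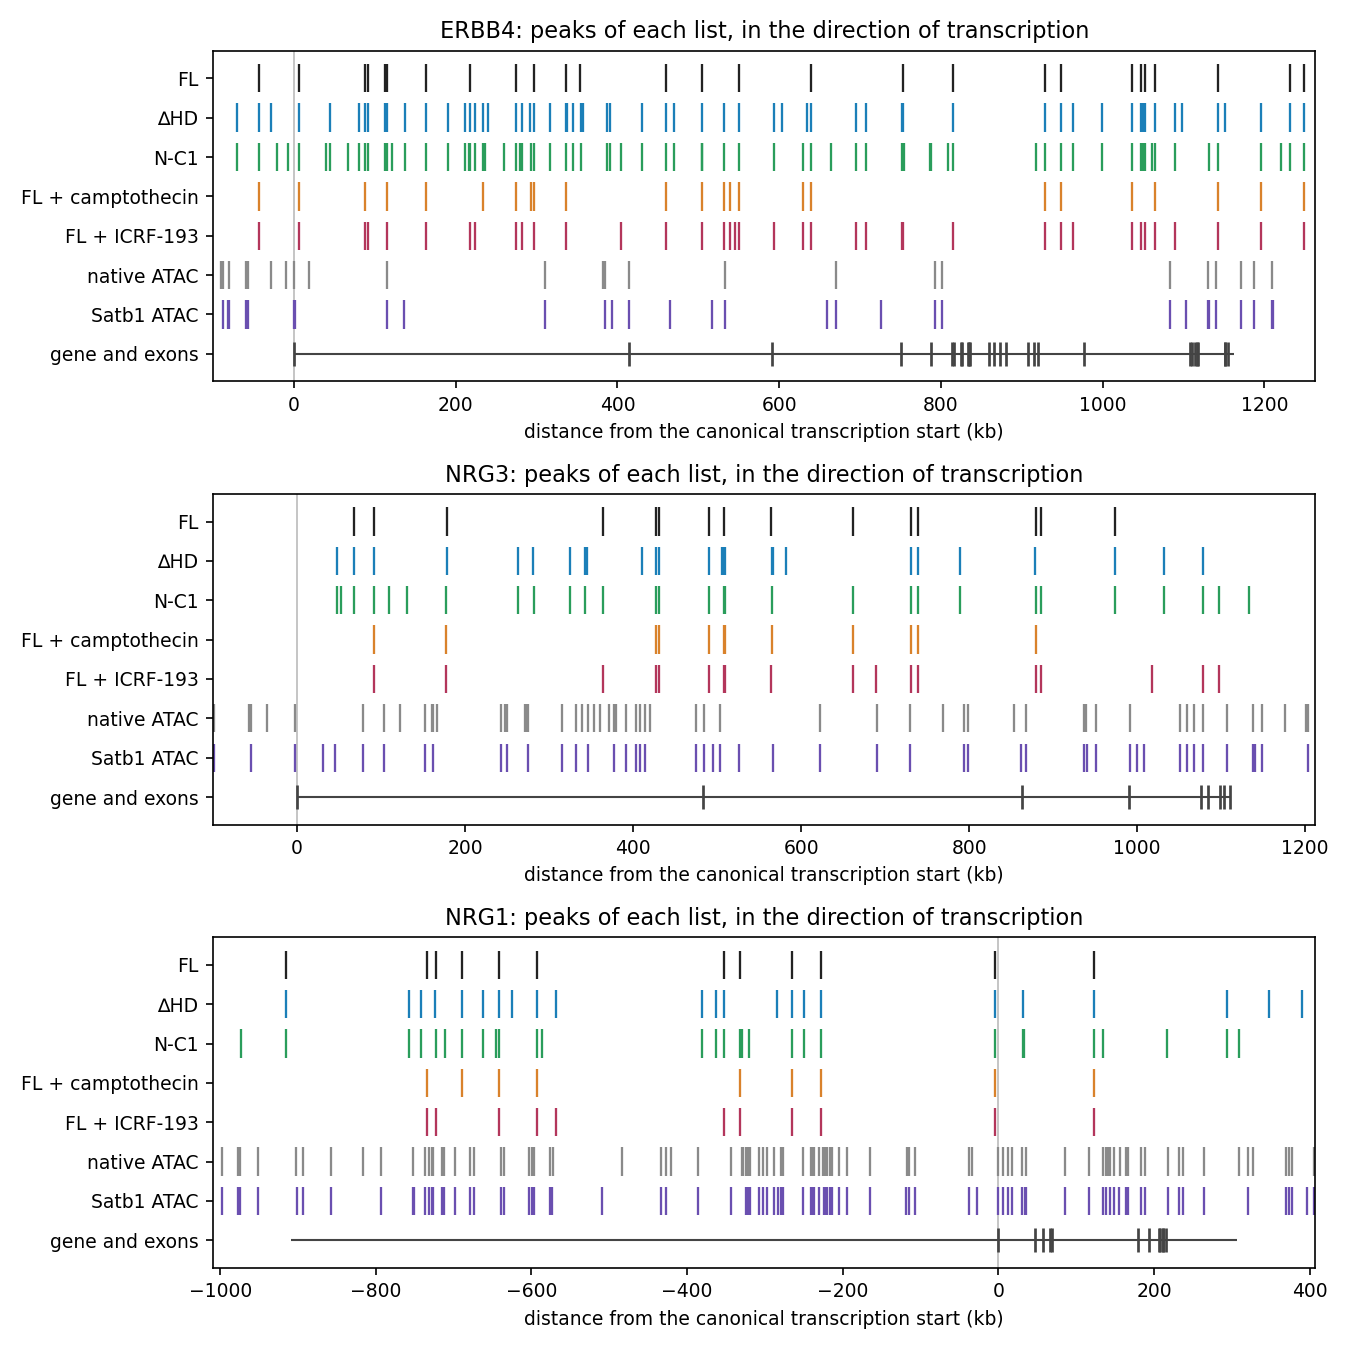
Peak positions in the ERBB4, NRG3 and NRG1 windows, plotted as distance from the canonical transcription start in kb (x axis), with 1 row of ticks for each of the 5 ChIP and 2 ATAC lists and the gene body with the exons of the canonical transcript at the bottom. ERBB4 has 27 FL ticks but only 24 native ATAC ticks, while NRG1 has 12 FL and 92 native ATAC ticks.

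NRG1, the best studied neuregulin, lies on chromosome 8 (chr8:31496738-32713184, plus strand). Its 35 merged sites included 12 with an FL peak. Of the 12, 10 lay in the 909 kb between the first annotated start and the canonical start, which lies outside the canonical transcript, and that stretch held 24 of the 35 sites. No FL site of NRG1 exceeded a fold enrichment of 10.5. This strongest one, site 5 at chr8:31671967-31672391, was in neither construct list, but had 10.5 in FL, 8.09 after camptothecin and 16.3 after ICRF-193. Site 19 was similar, with 8.70 in FL, 10.6 after camptothecin and 16.1 after ICRF-193, no ∆HD peak, and 3.44 in N-C1, a value at the 0.741 percentile of that list. Site 5 was 79.0% A/T and site 19 was 78.0%, both with 4 matches in 400 bp, and they were the most A/T-rich FL sites of the window. Site 2, upstream of the first start, was the single FL site missing after both drugs (6.09 in FL, 8.65 in N-C1). The N-C1 site 31 had its summit in an exon (4.83). Only 1 of 11 ICRF-193 peaks and 0 of 9 camptothecin peaks in the NRG1 window had no FL peak, where 43.3% and 23.9% had none over the genome.

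NRG2 lies on chromosome 5 (chr5:139226364-139422884, minus strand). It had no FL peak in its body, and both its FL sites lay upstream. Site 7, 33.3 kb upstream, had a fold enrichment of 11.0 in FL, 6.45 in ∆HD, 13.6 in N-C1, 12.6 after camptothecin and 14.5 after ICRF-193. Site 6, 24.2 kb upstream, had 8.09 in FL, 9.57 in ∆HD, 18.3 in N-C1, 6.59 after camptothecin and 7.09 after ICRF-193. Both were thus in all 5 lists. The other 8 sites were in construct lists alone, 5 of them in intron 1, with values of 3.94 to 6.51 in ∆HD and 3.96 to 5.66 in N-C1. Neither drug added a peak in this window.

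NRG3, an ERBB4 ligand of the nervous system, lies on chromosome 10 (chr10:83634950-84746935, plus strand). Of its 37 merged sites 36 were intronic, and all 15 FL peaks lay in introns 1 to 3 (6, 6 and 3). All 15 were in the N-C1 list and 12 were in the ∆HD list. Site 30 in intron 3 was the strongest, with a fold enrichment of 20.2 in FL, 7.84 in ∆HD, 16.1 in N-C1, 16.6 after camptothecin and 27.4 after ICRF-193. It stood at the 92.8 percentile of FL and the 66.0 percentile of ∆HD. Site 20 in intron 2 was nearly as strong in FL (18.3) but had 26.5 in ∆HD and 30.2 in N-C1. Site 25 in intron 2 had no ∆HD peak, although its fold enrichment was 15.0 in FL, 11.2 in N-C1, 16.4 after camptothecin and 19.2 after ICRF-193. It had 8 matches in 400 bp, the most of any FL site in the windows, followed by ERBB4 sites 42 and 67 and NRG3 sites 7 and 30 with 5 each. Site 32 in intron 3, with 9.38 in FL, 10.1 in ∆HD and 16.1 in N-C1, was the strongest FL site in the windows that was missing after both drugs. It had 1 match and 64.0% A/T, the lowest A/T of the 63 FL sites. Site 21 in intron 2 was the strongest site without an FL peak in both drug lists, with 6.10 after camptothecin and 9.87 after ICRF-193.

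The NRG3 sequences show the array of matches at site 25, which the ∆HD list lacked, beside site 30, which that list retained at a lower rank. Both are 150 bp on the plus strand of hg19 with matches in capitals. Site 25 held 7 matches whose starts were 17, 16, 17, 8, 31 and 11 bp apart, in a stretch of 82.7% A/T. Site 30 held 3 matches, and the last pair overlapped, with starts 3 bp apart.
NRG3 site 25 (chr10:84296568-84296717): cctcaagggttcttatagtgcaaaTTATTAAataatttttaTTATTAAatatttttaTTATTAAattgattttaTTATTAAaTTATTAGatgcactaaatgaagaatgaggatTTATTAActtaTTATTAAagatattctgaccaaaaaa
NRG3 site 30 (chr10:84513847-84513996): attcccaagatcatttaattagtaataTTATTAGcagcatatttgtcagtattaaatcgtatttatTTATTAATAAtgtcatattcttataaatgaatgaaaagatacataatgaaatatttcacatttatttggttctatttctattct

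NRG4, an ERBB4 ligand secreted by adipose tissue, lies on chromosome 15 (chr15:76228310-76352136, minus strand). Its 3 FL sites were in all 5 lists. Site 4, 115 kb upstream of the canonical start and within TMEM266, had a fold enrichment of 25.2 in FL, 25.2 in ∆HD, 44.8 in N-C1, 17.0 after camptothecin and 20.0 after ICRF-193, the largest N-C1 value in the 8 windows. Site 3 in intron 3 had 14.8 in FL, 15.0 in ∆HD, 15.9 in N-C1, 9.77 after camptothecin and 10.0 after ICRF-193. Site 2 in intron 4 had 6.78 in FL, 14.1 in ∆HD, 11.9 in N-C1, 7.91 after camptothecin and 8.11 after ICRF-193. Site 1, downstream in FBXO22, was in the N-C1 list alone (5.54). Site 4 is shown as the strongest site of the 8 windows in N-C1 that was also high in ∆HD (98.5 percentile). Its 150 bp at the summit on the plus strand of hg19 were 70.0% A/T and held 3 matches in capitals, with starts 10 and 22 bp apart.
NRG4 site 4 (chr15:76419297-76419446): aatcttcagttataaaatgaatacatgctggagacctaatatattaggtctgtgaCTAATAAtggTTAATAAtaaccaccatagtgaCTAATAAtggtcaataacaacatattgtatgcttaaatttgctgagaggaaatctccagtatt

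Over the 8 windows, 62 of the 63 FL peaks held a consensus match within 400 bp at the midpoint (98.4%, 91.5 to 99.96), where 96.6% of all FL peaks did and 25.8% of consecutive 400 bp tiles of the genome did. The exception was ERBB4 site 26 in intron 4. With a narrower consensus (CTAATA followed by A or G) the share in the windows was 76.2%. The 63 peaks had a mean of 2.84 matches and 73.4% A/T (SD 4.13 across peaks), and all FL peaks had 2.75 and 72.4% (SD 5.49). Median fold enrichment was higher where matches were more numerous, although the ranges overlapped. The median was 6.50 in the 25 peaks with 1 or 2 matches, 7.33 in the 19 with 3, and 10.1 in the 17 with 4 or 5, and over the genome these medians were 6.64, 7.26 and 8.82. The median over all 63 peaks was 7.33, against 7.32 over all FL peaks.

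**Figure D3:**
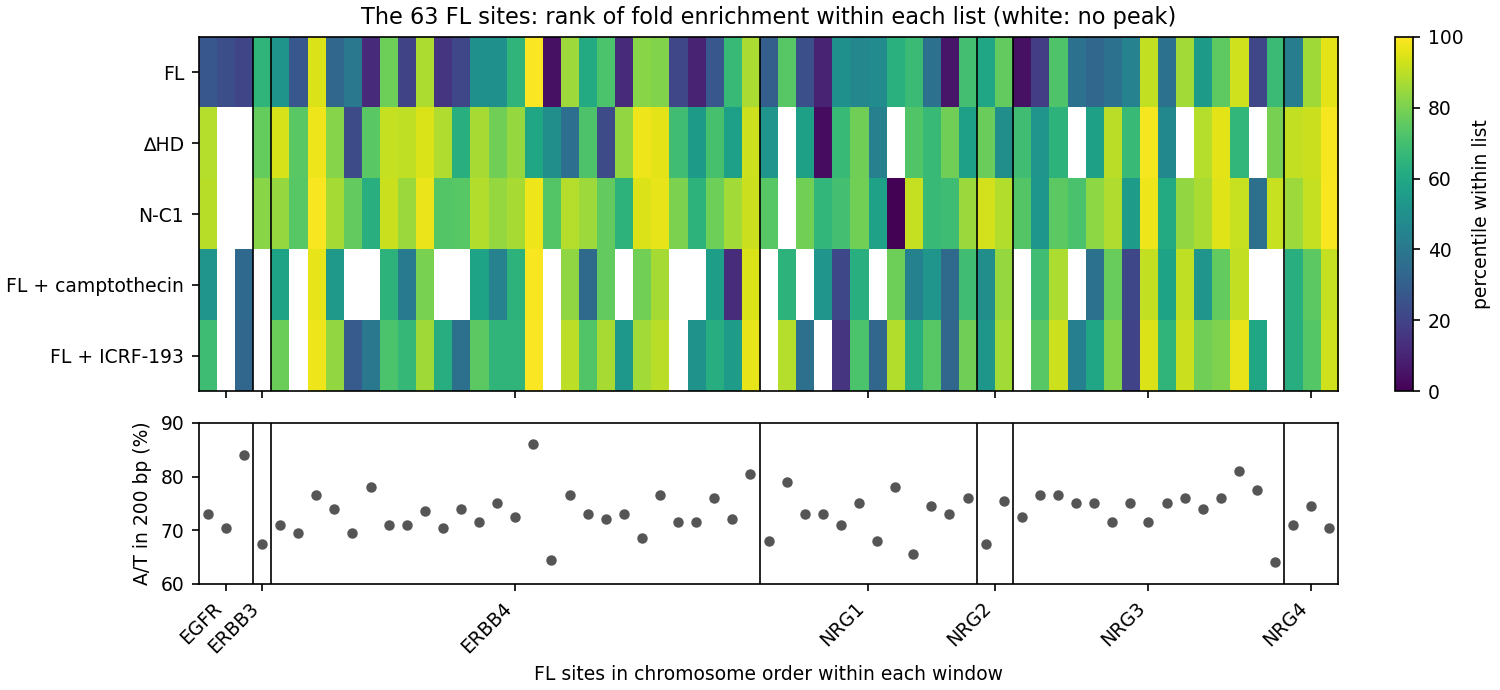
The 63 FL sites in the windows (x axis, in chromosome order within each gene) with the percentile of their fold enrichment within each of the 5 lists (upper panel, colour scale from 0 to 100, white for no peak) and their A/T content in 200 bp (lower panel, axis from 60 to 90%). The 27 ERBB4 sites are filled in both construct rows, and 18 sites are white after camptothecin.

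The constructs kept most FL sites of the family. An N-C1 peak overlapped 60 of the 63 FL peaks (95.2%, 86.7 to 99), where 95.2% did over the genome, and a ∆HD peak overlapped 56 (88.9%, 78.4 to 95.4), where 88.6% did. The 7 FL sites without a ∆HD peak were EGFR sites 3 and 5, NRG1 sites 5 and 19, and NRG3 sites 14, 25 and 31. They were more A/T rich than the 56 others, at 77.1% (SD 4.11) against 72.9% (SD 3.92), and had 3.71 matches on average against 2.73. The same held over the genome, at 78.0% (SD 6.18) and 3.04 matches without a ∆HD peak against 71.7% (SD 4.95) and 2.71 matches with one. EGFR sites 3 and 5 and NRG1 site 5 were also the 3 sites without an N-C1 peak. Where a ∆HD peak was present, the FL percentile exceeded the ∆HD percentile at 11 of 56 sites. These averaged 75.1% A/T against 72.4% at the other 45 sites. This was not counted over all FL peaks. Over the genome 60.1% of ∆HD peaks had no FL peak, and their median fold enrichment was 5.56 against 9.91 with one. Sites shared with FL were thus the stronger part of the ∆HD list by median. Without a count over all FL peaks, 11 of 56 does not show whether these genes differ.

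The lists of the constructs extended beyond FL by similar shares as elsewhere. In the 8 windows 91 of 151 N-C1 peaks (60.3%, 52.0 to 68.1) and 72 of 128 ∆HD peaks (56.2%, 47.2 to 65.0) had no FL peak. Of the 117 merged sites without FL, 49 were in both construct lists, 41 in N-C1 without ∆HD, 23 in ∆HD without N-C1, and 4 in drug lists only. The strongest N-C1 site without FL was ERBB4 site 49, described above. The strongest such ∆HD site was ERBB4 site 55 in intron 1, with 10.9 in ∆HD, 8.65 in N-C1 and 4.41 after ICRF-193.

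Of the 63 FL sites 40 were in all 5 lists and 23 were missing from at least 1, most often after a drug. After camptothecin 45 of the 63 FL peaks were found again (71.4%, 58.7 to 82.1), where 81.7% were over the genome. After ICRF-193 54 were (85.7%, 74.6 to 93.3), where 92.9% were. Both intervals were wide, and each held its genome-wide value. The 18 sites missing after camptothecin had a median FL fold enrichment of 5.72 against 8.70 at the 45 others, and 71% A/T against 74.4%. Over the genome these values were 5.68 against 8.15 and 68.9% against 73.2%. The 8 sites missing after both drugs were EGFR site 3, ERBB3 site 2, ERBB4 sites 2, 48 and 71, NRG1 site 2, and NRG3 sites 3 and 32. New peaks were few. After camptothecin 8 of 53 peaks had no FL peak (15.1%, 6.75 to 27.6), where 23.9% had none over the genome, and after ICRF-193 21 of 75 had none (28%, 18.2 to 39.6), where 43.3% had none, a value above the interval in the windows. Of the 23 sites with a drug peak and no FL peak, 19 were also in a construct list. Presence in all 5 lists, absence after both drugs and presence of drug sites in construct lists were not counted over the genome. Those counts describe the windows alone.

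Promoters were examined next. Of 68 distinct protein-coding start positions of the 8 genes, taken with 1000 bp upstream and 100 bp downstream, none overlapped a peak of any of the 5 ChIP lists, and over the genome a peak of any of the 5 lists overlapped 1.07% of 78569 starts and an FL peak 0.307%. At such low shares, a count of 0 among 68 starts does not set the family apart. The FL peak nearest to a canonical start was 4.35 kb away in NRG1 and 6.11 kb away in ERBB4, where site 78 lay in intron 1. It was 29.0 kb away in EGFR, 44.9 kb in NRG4, 55.4 kb in ERBB3, 67.6 kb in NRG3 and 147 kb in ERBB2. A consensus match lay in 18 of the 68 promoter windows, where 30.9% held one over the genome. Among the 8 canonical starts ERBB2 and ERBB4 had 1 match each and NRG4 had 2. In the shorter RefSeq promoter sequences (GRCh38.p14, 250 bp before to 50 bp after the start) of 6 of the genes, none of 9 sequences held one, against 7.74% of all 35116 promoters, and 9 sequences are too few to show a difference from that share.

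Accessibility at the starts separated the genes. A native ATAC region overlapped the promoter window of 33 of the 68 starts (48.5%), where 69.7% of promoter windows were overlapped over the genome. A Satb1 ATAC region overlapped 37 (54.4%), where 74.5% were. Such a region need not reach the start itself. Starts of 1 gene lie close together and are not independent. The promoter window of the canonical start was overlapped in both lists in 7 genes and in neither list in NRG3. No region overlapped the promoter window of any of the 6 NRG3 starts. Fold enrichment in native and Satb1 cells was 12.6 and 10.4 at EGFR, 11.3 and 7.40 at ERBB2, 16.4 and 12.7 at ERBB3, 16.2 and 11.9 at NRG1, 18.0 and 14.2 at NRG2, and 5.36 and 4.88 at NRG4. At ERBB4 it was only 2.36 and 2.46, in regions that lay upstream of the canonical start and did not reach it. The values of the Satb1 list were lower over the whole list too, with a median of 2.93 against 4.39 in native cells, and no change at a gene was read from these pairs. At ERBB3 the region was 3186 bp in the native list and 6218 bp in the Satb1 list. There it overlapped the promoter windows of 7 rather than 4 of the 11 ERBB3 starts. At ERBB2 the start at 10.3 kb inside the gene had a weak region (1.83) in the Satb1 list alone. Regions of the Satb1 list were wider over the whole list too, with a median of 628 against 550 bp.

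FL sites mostly lay outside accessible regions. Of the 63 FL peaks, 2 overlapped a native ATAC region (3.17%, 0.387 to 11.0), where 3.42% did over the genome, and 3 overlapped a Satb1 ATAC region (4.76%, 0.993 to 13.3), where 4.64% did. They were EGFR site 3 and ERBB4 site 70 in both lists and EGFR site 5 in the Satb1 list. EGFR site 3 lay in the widest Satb1 ATAC region of its window, 10.3 kb in intron 1 (chr7:55114929-55125228, fold enrichment 5.75), which covered 2 native regions. ERBB4 was the least accessible window. It had 24 native regions (17.6 per Mb, median of all protein-coding windows 89.9), 2.96% of windows had a lower density, and its FL peaks lay a median of 27.2 kb from the nearest native region. In NRG1, with 65.0 native regions per Mb, the median distance was 3.36 kb, yet no FL peak overlapped a region of either list.

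**Figure D4:**
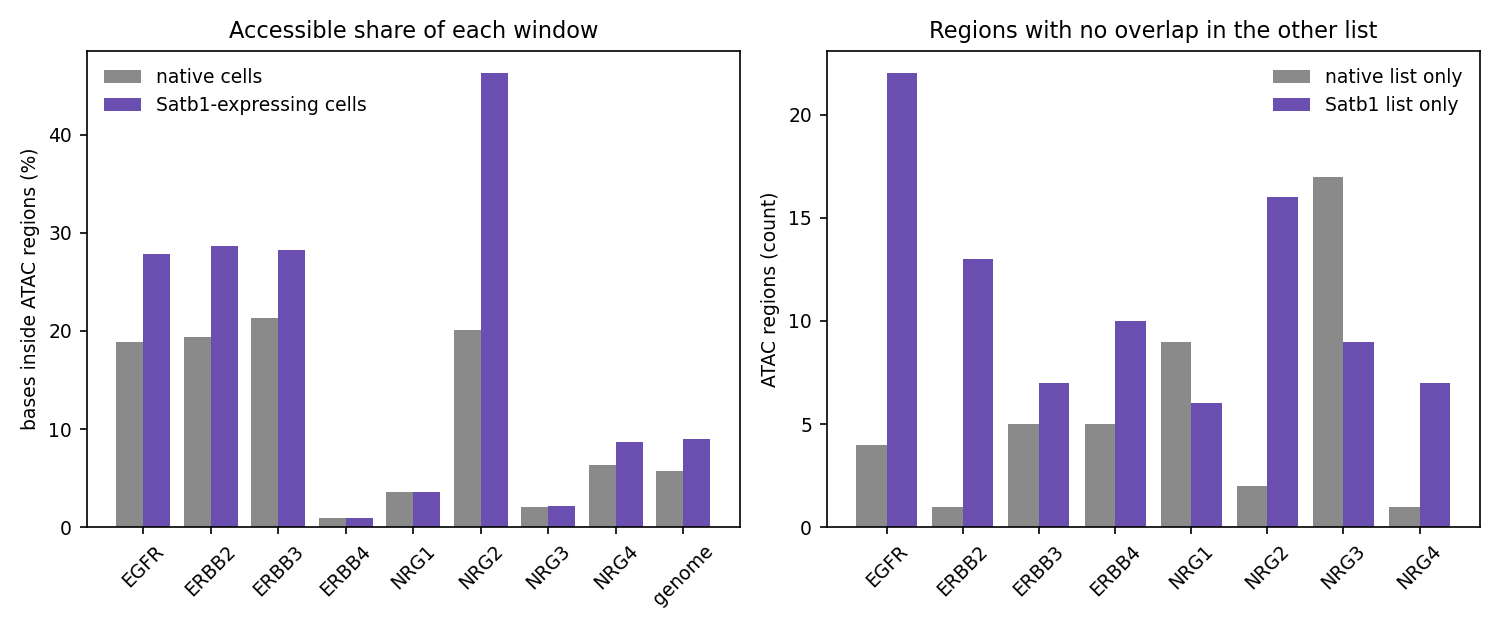
Left panel, percent of the bases of each gene window and of the genome that lay inside ATAC regions in native cells (grey) and in cells expressing Satb1 (purple). Right panel, number of regions in each window that overlapped no region of the other list. NRG2 rises from 20.1 to 46.2% on the left, and NRG3 has 17 native-only regions on the right.

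With Satb1, 329 of the 373 native regions in the windows were found again (88.2%, 84.5 to 91.3), where 88.8% were over the genome. In the reverse direction 90 of the 389 Satb1 regions had no native counterpart (23.1%, 19.0 to 27.7), where 29.8% had none. This share depended on the settings: it was 40.1% with a reciprocal overlap of 50% and 14% with a −log10 q-value of at least 5 in both lists. The genes differed in both. NRG3 kept 40 of 57 native regions (70.2%, 56.6 to 81.6), the lowest share, and ERBB4 kept 19 of 24 (79.2%, 57.8 to 92.9), whereas EGFR kept 49 of 53 (92.5%, 81.8 to 97.9) and NRG2 kept 57 of 59 (96.6%, 88.3 to 99.6). NRG1 gained least, with 6 of 88 Satb1 regions absent from the native list (6.82%, 2.54 to 14.3), whereas EGFR gained 22 of 69 (31.9%, 21.2 to 44.2) and ERBB4 gained 10 of 30 (33.3%, 17.3 to 52.8). Regions found in 1 list alone were weak. Only 7 of the 90 gained and 8 of the 44 lost regions reached a −log10 q-value of 5. Such regions were weak over the genome too, with a median −log10 q-value of 2.24 in the Satb1 list and 2.71 in the native list. The strongest gained region of NRG3 (chr10:84201628-84201918, intron 2, 2.99) overlapped site 23, a ∆HD peak of 5.52. The strongest gained region of ERBB4 (chr2:212938163-212938401, intron 2, 2.72) lay 4.77 kb from site 42.

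The strongest region of the EGFR window, in intron 20 (chr7:55253215-55254665 in native cells), was in both lists with a fold enrichment of 28.8 and 27.7. ATAC regions of the Satb1 list covered more bases than native ones at EGFR, ERBB2, ERBB3, NRG2 and NRG4, as they did over the genome. The share of bases inside ATAC regions was 18.8% in native and 27.8% in Satb1 cells at EGFR, 19.4% and 28.6% at ERBB2, 21.3% and 28.2% at ERBB3, and 6.35% and 8.69% at NRG4. At NRG2 it was 20.1% and 46.2%, while the number of regions fell from 59 to 49 and their median width rose from 810 to 2601 bp. In that window 18 of the 49 Satb1 regions each overlapped at least 2 native regions, where 4.17% did over the genome, and the other 7 windows had 0 to 3 such regions. The long windows stayed level, at 0.899% and 0.936% in ERBB4, 3.61% and 3.54% in NRG1, and 2.02% and 2.11% in NRG3. Over the genome the share was 5.76% and 8.95%, a larger difference in proportion than in any window but NRG2. Broad regions were called separately in each list, and the depth behind each list is not known.

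Other genes of the pathway were counted in windows of the same kind. Of 20 such genes 15 had an FL peak in the window, where 58.8% of all protein-coding windows held one. There were 27 peaks counted by gene and 25 distinct peaks, since the windows of AREG, EREG, EPGN and BTC overlap. All 7 EGF-like ligand genes had at least 1, with BTC highest at 3, but the overlapping windows are not separate counts. Each class is too small to be told from the share over all windows. The adaptors had FL peaks in 3 of 6 (SOS1 3, GAB1 2 and PTPN11 2, none at GRB2, SHC1 or CBL), the negative regulators in 4 of 5 (none at RNF41, whose window overlaps that of ERBB3), and the shedding proteases in 1 of 2 (ADAM10 4, ADAM17 none). The median density of the 20 windows was 4.65 FL peaks per Mb, and 4.0 in all protein-coding windows. It was 8.06 in the 8 windows of the receptors and neuregulins. The longest of the 20 was SOS1 at 362 kb, whereas the windows of ERBB4, NRG1 and NRG3 were over 1 Mb. Protein-coding windows of at least 1 Mb had a median of 9.01, so these medians are not like for like. The highest of the 20 was BTC at 12.0, below ERBB4.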

How the data were processed

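The 5 ChIP-seq and 2 ATAC-seq peak lists of MCF10A cells were used, out of 20 samples. The inputs, the N-terminal construct, the VL3 mouse lists and TMP-seq were not used here. The submitters' processing notes and the paper name cutadapt for trimming, Bowtie2 for alignment (hg19) and MACS2 for peaks, called narrow against input for ChIP-seq and broad for ATAC-seq. The paper gives a version for the trimming tool, while those of Bowtie2 and MACS2, and whether duplicates were pooled, are not given in the sources used here. Fold enrichment is a deposited ratio to local background. The authors also deposited, for each peak, a −log10 q-value (used as a threshold), a −log10 p-value and a score (both unused). The paper gives a range of depth for the ChIP-seq libraries, not the number of reads behind each list, and deeper libraries can yield more and weaker peaks.

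Windows were GENCODE 44 gene bodies (lifted to GRCh37) with 100 kb flanks. Overlaps required 1 bp. ChIP peaks that overlapped across the 5 lists were merged into sites, each represented in a list by its highest peak. Consensus matches were counted in 400 bp and A/T content in 200 bp, at the midpoint of the FL peak or, without one, of the peak of N-C1, ∆HD, ICRF-193 or camptothecin, in that order. Introns refer to the summit in the MANE transcript. The members and lists were chosen with earlier results of these data known. Named sites were the strongest FL site of each window, all sites of windows with 3 or fewer FL peaks, and the 3 FL sites with the most matches. Also named were FL sites missing from another list, the strongest site without FL in each other list, and ATAC regions overlapping promoter windows. A tie of 4 sites for the second and the third place in matches was broken by fold enrichment. Other sites and ATAC regions were named after their values were seen. Overlaps were tested on simulated data against bedtools, and the motif search on simulated sequence with planted matches. Shares have exact intervals, and no conditions were tested against each other. Alternatives covered the window, peak thresholds, the overlap rule, the motif window and the consensus. Software comprised pysam 0.24.0, matplotlib 3.10.9, pandas 2.3.3, scipy 1.17.1, numpy 2.4.6 and Python 3.11.15.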

Additional observations from a re-analysis of the deposited data

How the results depend on the processing

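Of 26 alternatives, 21 left the value within 1.5 times the count or within the 95% interval of the share. A reciprocal overlap of 50% lowered the share of FL peaks with a ∆HD peak to 69.8%, lowered the share of native ATAC regions found again to 62.5% and raised the share of Satb1 ATAC regions absent from the native list to 40.1%. Requiring a −log10 q-value of 5 in both ATAC lists lowered that last share to 14%, so the gained share depends on the threshold. A narrower consensus (CTAATA followed by A or G, on either strand) lowered the share of FL peaks with a match to 76.2%. The FL count was 63 in the windows, 54 in gene bodies and 60 at a fold enrichment of at least 5. No paired analysis was possible because there was 1 list per condition. The limits are the single list per condition, the depth of each list, which is not known, and the small counts outside ERBB4, NRG1 and NRG3.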
